A study of Rattus norvegicus with 3 samples.

Results

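The genes described here make prostanoids and leukotrienes. They are the phospholipase Pla2g4a, the cyclooxygenases Ptgs1 and Ptgs2, the prostanoid synthases Ptges, Tbxas1 and Hpgds, the lipoxygenases Alox5 and Alox15, the lipoxygenase partner Alox5ap and the leukotriene synthase Ltc4s. They were found by gene symbol among the annotated probes, with older symbols accepted. All 10 were measured, by 11 probes in all, out of 15925 named genes on the array, and Ptgs2 alone had 2 probes. Expression was measured in NR8383 cells, an established line of rat alveolar macrophages, the phagocytes of the lung surface. One group received the nanotube kind CNT-1 and another the kind CNT-2, in each case impurity-free single-wall carbon nanotubes at 0.1 mg/mL in 1 mg/mL bovine serum albumin for 24 h. The control was kept for the same 24 h and is called an untreated control in one label and a solvent control with albumin in another, so whether it held albumin is not settled. No source used here says in what respect the kinds of nanotube differ.

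As background, prostanoids and leukotrienes are short-lived lipid signals made from arachidonic acid. The cytosolic phospholipase encoded by Pla2g4a frees arachidonic acid from membranes. Cyclooxygenases turn it into an unstable prostaglandin that terminal synthases convert to prostaglandins or thromboxane, and arachidonate lipoxygenases turn it into leukotrienes and related hydroxy acids. Alveolar macrophages are known as a source of leukotrienes, thromboxane and prostaglandins in the lung.

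The table held 1 value per probe and group, on what was taken to be a log2 scale centred per probe on a baseline of unknown origin. A value therefore says how far a probe lay from that baseline and nothing about how much RNA the gene had, so levels of different genes cannot be compared. No group had a second column, so no difference has a replicate check, no test was made, and the words higher and lower hold for these columns alone. The scale is read as log2, so that a difference of 1 is 2-fold. In RNA from whole cultures, fewer cells of a kind and less RNA per cell cannot be told apart. Precision is limited by the number of arrays.

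In cells exposed to CNT-2, 4 of the 10 genes were at least 2-fold lower than in control, where 6.56% of all named genes were. Ptgs1 was 19.5-fold lower, Alox5ap 6.70-fold lower, Alox5 4.92-fold lower and Tbxas1 2.10-fold lower. No member was at least 2-fold higher, where 10.1% of all named genes were. In cells exposed to CNT-1, 2 members were at least 2-fold lower, where 2.15% of all named genes were. These were Alox5ap, by 3.17-fold, and Ptgs1, by 3.05-fold. The inducible cyclooxygenase Ptgs2 was not above control in either exposure in the values as deposited. Alox15 was the only member above control in CNT-2, by 0.71.

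**Figure D1:**
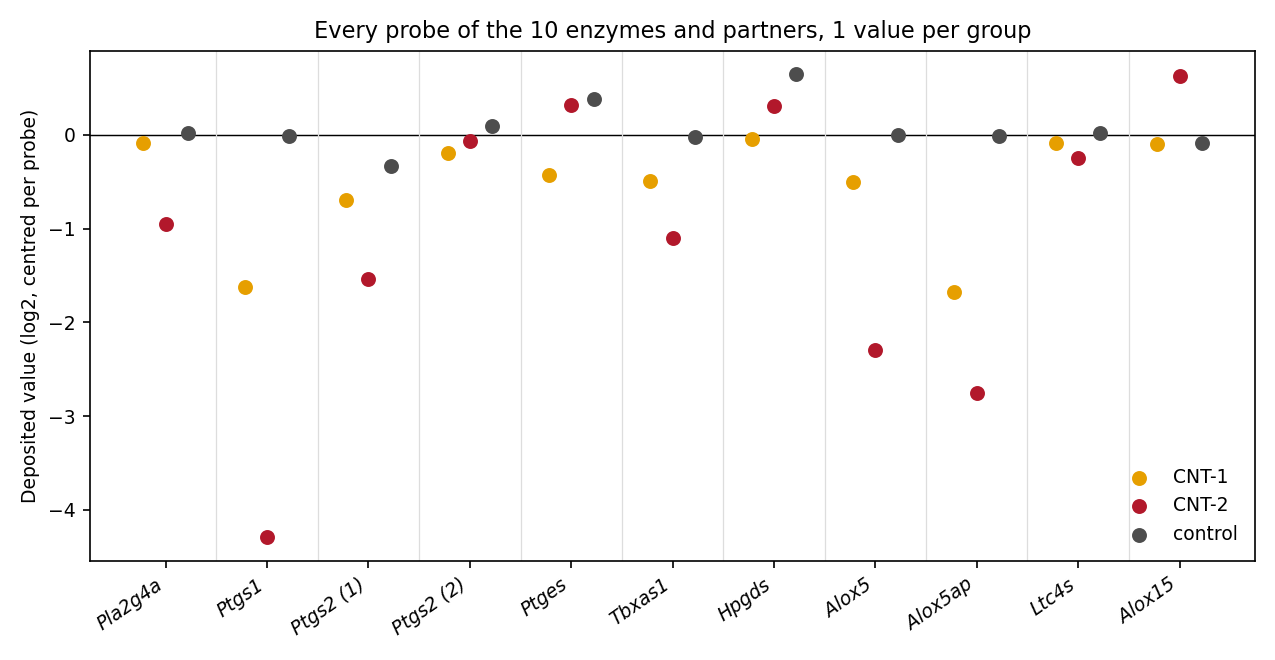
Deposited value (vertical axis, log2, centred per probe) of every probe of the 10 genes in CNT-1 (orange), CNT-2 (red) and control (grey), 1 point per group and no error bars because each group has 1 column; Ptgs2 (1) and Ptgs2 (2) are its 2 probes. The CNT-2 points of Ptgs1, Alox5ap and Alox5 lie at -4.29, -2.76 and -2.30, while their control points lie at -0.01, -0.01 and 0.001.

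The cyclooxygenases carry out the committed step of prostanoid synthesis. Ptgs1, the form that most cells express constitutively, had a value of -1.62 in CNT-1 and -4.29 in CNT-2, against -0.01 in control. Both exposed columns thus lay below control, and CNT-2 lay below CNT-1. The differences were -1.61 for CNT-1 minus control and -4.28 for CNT-2 minus control. Among all 15925 named genes Ptgs1 ranked 6 from the lowest in CNT-2 minus control and 75 from the lowest in CNT-1 minus control. Across 4 other scalings of the columns the CNT-2 difference ranged from -4.60 to -2.40 and the CNT-1 difference from -1.60 to -1.33.

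Ptgs2, the form that inflammatory signals induce, gave a different picture in each of its probes. The first probe, annotated to the RefSeq transcript, had -0.69 in CNT-1 and -1.54 in CNT-2, against -0.33 in control. The second had -0.19 in CNT-1 and -0.07 in CNT-2, against 0.10 in control. Every exposed value lay below its control value. In CNT-2 the difference was -1.21 on the first probe and -0.16 on the second, so the size of that difference rests on the probe chosen. The mean difference was -0.32 ± 0.06 in CNT-1 and -0.69 ± 0.74 in CNT-2 (SD over 2 probes, which is technical spread within these arrays). Centring columns on the median, the 75th percentile or the spike-in probes left both means negative, at -0.26 and -0.74 with the median. Quantile normalization turned them positive, to 0.40 in each exposure. That scaling gives all columns 1 distribution, although the SD over probes was 0.16 in control, 0.40 in CNT-1 and 0.85 in CNT-2. It thus widens control values by construction, and its sign change cannot decide the direction. With 1 column per group the direction for Ptgs2 has no replicate check.

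The promoters of the members that were at least 2-fold lower in CNT-2 are given here with that of Ptgs2, so that the constitutive and the inducible cyclooxygenase can be read side by side. Of the 10 members 7 had an entry in the RefSeq promoter table of build GRCr8, and Hpgds, Alox5ap and Alox15 had none. Each sequence is the 250 bases before the annotated start, 5′ to 3′ on the strand of the gene, and capitals mark the motifs named after the sequences. Ptgs1 lies on the + strand at chr3:39981169-39981418, Alox5 on the - strand at chr4:151251127-151251376, Tbxas1 on the + strand at chr4:68631635-68631884 and Ptgs2 on the + strand at chr13:64713813-64714062.
Ptgs1: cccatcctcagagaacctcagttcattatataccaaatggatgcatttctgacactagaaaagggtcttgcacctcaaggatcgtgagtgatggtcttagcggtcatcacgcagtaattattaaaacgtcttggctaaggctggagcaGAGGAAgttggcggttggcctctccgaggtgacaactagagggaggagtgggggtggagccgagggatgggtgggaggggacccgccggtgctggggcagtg
Alox5: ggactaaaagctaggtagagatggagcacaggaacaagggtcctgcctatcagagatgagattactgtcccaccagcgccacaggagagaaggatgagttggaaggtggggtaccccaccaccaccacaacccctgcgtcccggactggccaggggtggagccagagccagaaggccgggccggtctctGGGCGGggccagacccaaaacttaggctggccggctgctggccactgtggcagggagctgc
Tbxas1: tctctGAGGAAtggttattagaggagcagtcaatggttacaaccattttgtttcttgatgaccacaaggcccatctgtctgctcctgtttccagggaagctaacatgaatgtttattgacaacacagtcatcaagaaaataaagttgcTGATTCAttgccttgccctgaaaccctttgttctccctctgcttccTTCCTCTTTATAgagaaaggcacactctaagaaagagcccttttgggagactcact
Ptgs2: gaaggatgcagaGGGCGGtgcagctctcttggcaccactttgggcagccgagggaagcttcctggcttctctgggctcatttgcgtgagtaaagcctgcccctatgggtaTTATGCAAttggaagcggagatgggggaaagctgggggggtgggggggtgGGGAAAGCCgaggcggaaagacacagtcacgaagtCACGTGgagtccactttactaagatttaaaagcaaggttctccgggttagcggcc

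A search of both strands covered 7 motifs, namely the GC box GGGCGG bound by Sp1, the PU.1 core GAGGAA, the C/EBP core TTNNGNAA, the AP-1 motif TGANTCA, the E-box CACGTG, the TATA box TATAAA and a loose NF-kappaB motif GGNNTTNCC. Ptgs1 held 1 PU.1 core, 102 to 97 bases before the start. Tbxas1 held 2 PU.1 cores, of which the nearer, on the opposite strand at 56 to 51 bases, abuts a TATA box on the opposite strand at 50 to 45 bases, and an AP-1 motif 102 to 96 bases before the start. Alox5 held 1 GC box at 61 to 56 bases. Ptgs2 held a GC box at 238 to 233 bases, a C/EBP core at 140 to 133 bases, the NF-kappaB letters on the opposite strand at 90 to 82 bases and an E-box at 55 to 50 bases. The PU.1 core was in 3 of the 7 member windows, those of Ptgs1, Tbxas1 and Ptges, the last of which differed from control by -0.06 in CNT-2. The GC box and the C/EBP core were likewise each in 3 of the 7. The TATA box and the NF-kappaB letters were each in 2, and the AP-1 motif and the E-box each in 1. No motif was in all of Ptgs1, Alox5 and Tbxas1, and none overlapped another in the sequences shown. Over 33469 promoter windows of the same length in the table, the GC box was found in 30.5%, the PU.1 core in 23.3%, the C/EBP core in 37.2%, the AP-1 motif in 6.34%, the E-box in 5.59%, the TATA box in 12.9% and the NF-kappaB letters in 13.6%. The share of G and C bases was 54.4% for Ptgs1, 62.8% for Alox5, 42.8% for Tbxas1 and 57.2% for Ptgs2, against a median of 51.2% over all windows.

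Upstream of the cyclooxygenases, the phospholipase gene Pla2g4a had -0.09 in CNT-1 and -0.95 in CNT-2, against 0.02 in control. CNT-1 lay near control, and CNT-2 was lower with a difference of -0.97, just short of 2-fold. This difference passed 2-fold when columns were centred on their median (-1.02), their 75th percentile (-1.28) or the spike-in probes (-1.19), and shrank to -0.54 with quantile normalization.

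Downstream, the 3 prostanoid synthases did not share a pattern. Tbxas1, which makes thromboxane, had -0.50 in CNT-1 and -1.10 in CNT-2, against -0.03 in control. Its difference of -1.07 in CNT-2 was just past 2-fold, with 5.77% of all genes lower still, and was -0.32 with quantile normalization. Ptges, the inducible microsomal prostaglandin E synthase, had -0.43 in CNT-1 and 0.32 in CNT-2, against 0.38 in control. Its difference was -0.80 in CNT-1 and -0.06 in CNT-2. Hpgds, the haematopoietic prostaglandin D synthase, had -0.05 in CNT-1 and 0.31 in CNT-2, against 0.65 in control. The control values of Ptges and Hpgds stood away from 0, where 8 of the 11 member probes lay within 0.1 of it. Read against the deposited baseline and not against the control column, Ptges was therefore at 0.32 and Hpgds at 0.31 in CNT-2, on the other side of 0 from their differences of -0.06 and -0.34. Quantile normalization moved both genes down, Ptges to -1.33 in CNT-1 and -0.75 in CNT-2, and Hpgds to -1.31 and -1.17, so that Ptges in CNT-1 and Hpgds in both exposures passed 2-fold under that scaling alone of the 4.

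**Figure D2:**
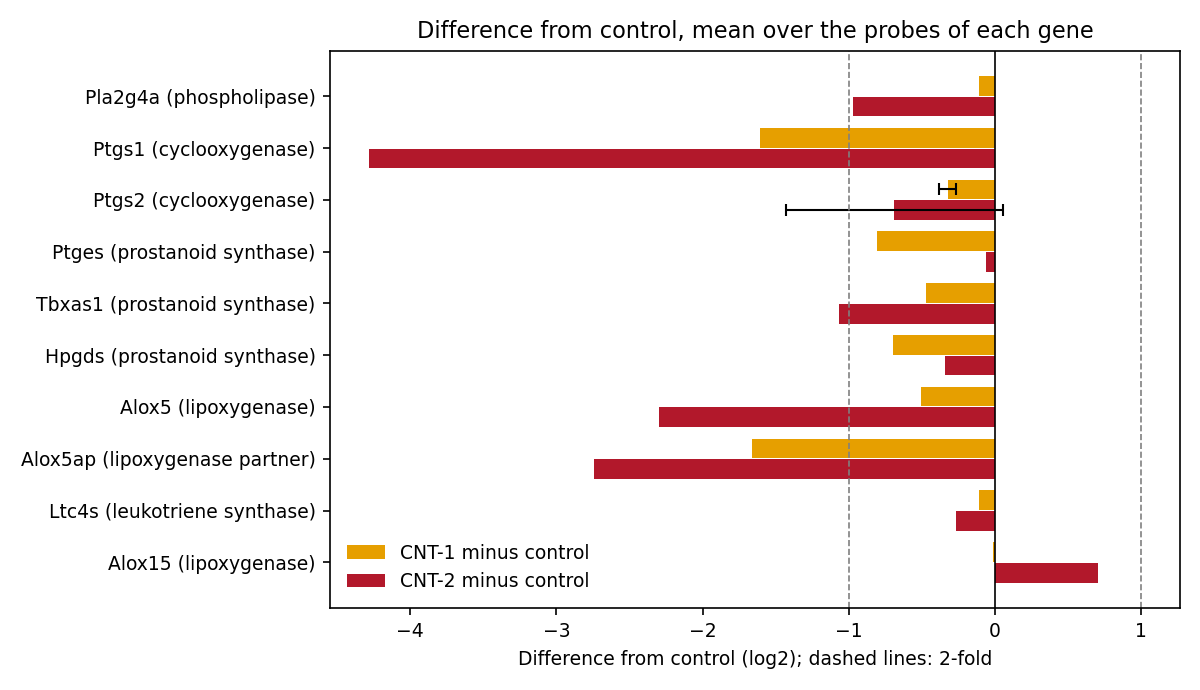
Difference from control (horizontal axis, log2) of each of the 10 genes for CNT-1 (orange, upper bar) and CNT-2 (red, lower bar), as the mean over probes; the error bars on Ptgs2 are the SD over its 2 probes, the other genes have 1 probe, and dashed lines mark 2-fold. In CNT-2 the bars of Ptgs1, Alox5ap, Alox5 and Tbxas1 pass the lower line, and in CNT-1 those of Alox5ap and Ptgs1 do.

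The leukotriene arm begins with 5-lipoxygenase, encoded by Alox5, which needs the membrane protein encoded by Alox5ap to be presented with arachidonic acid. Alox5ap had -1.68 in CNT-1 and -2.76 in CNT-2, against -0.01 in control. Alox5 had -0.51 in CNT-1 and -2.30 in CNT-2, against 0.001 in control. The enzyme and its partner were thus both below control in each exposure, and CNT-2 lay below CNT-1 for each. The differences of Alox5ap were -1.67 in CNT-1 and -2.75 in CNT-2, ranking 64 and 45 from the lowest of all named genes. Those of Alox5 were -0.51 in CNT-1 and -2.30 in CNT-2, ranking 97 from the lowest in CNT-2. Across the 4 other scalings the CNT-2 differences ranged from -3.06 to -1.45 for Alox5ap and from -2.61 to -1.24 for Alox5.

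The branches after 5-lipoxygenase differed in size. Ltc4s, which joins glutathione to the intermediate to give the first cysteinyl leukotriene, had -0.09 in CNT-1 and -0.25 in CNT-2, against 0.02 in control. Its differences of -0.11 and -0.27 were far from 2-fold. Lta4h, a gene outside the set that encodes the hydrolase making leukotriene B4 from the same intermediate, had -0.82 in CNT-1 and -1.65 in CNT-2, against 0.05 in control. Its differences were -0.87 in CNT-1 and -1.69 in CNT-2, so that of the 2 enzymes competing for the intermediate the hydrolase showed the larger difference.

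Alox15 encodes a 12/15-lipoxygenase, which acts on arachidonic acid outside the leukotriene route. It had -0.09 in CNT-1 and 0.63 in CNT-2, against -0.08 in control. The difference was -0.01 in CNT-1, and CNT-2 was higher by 0.71, or between 0.39 and 0.88 under the other scalings. The sign of the CNT-1 difference changed with the scaling.

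Read as a set in CNT-1, 0 of the 10 genes were 2-fold or more above control and 2 were 2-fold or more below it, where 1.16% of all named genes were above and 2.15% below by that much. In CNT-2, 0 members were higher and 4 lower, beside 10.1% and 6.56% of all genes. The median over members was -0.49 in CNT-1 and -0.83 in CNT-2, while the median over all genes was -0.04 and 0.04. As deposited, all 10 members lay below 0 in CNT-1, as did 57.8% of all genes, and 9 of 10 did in CNT-2, as did 46.4%. These counts depend on the scaling. Alox15 in CNT-1, at -0.01, turned to 0.05 with median centring, 0.04 with spike-in centring and 0.53 with quantile normalization. Ptgs2 turned to 0.40 in each exposure with quantile normalization. The comparisons of CNT-1 and of CNT-2 with control share the control column, so a control value that is itself off moves them together.

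**Figure D3:**
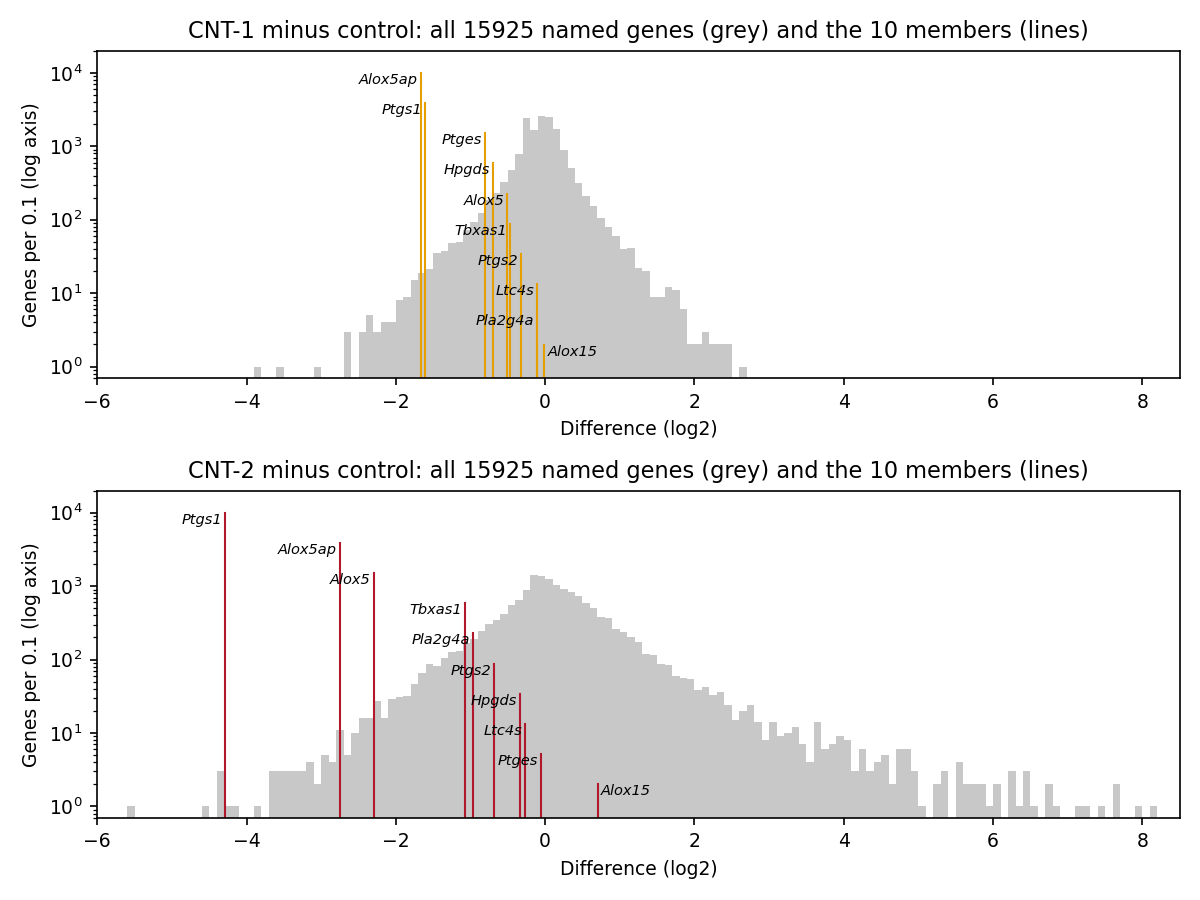
Histograms of the difference from control (horizontal axis, log2; bins of 0.1; vertical axis on a log scale) over all 15925 named genes, CNT-1 above and CNT-2 below, with a line for each of the 10 members whose height has no meaning. Ptgs1, Alox5ap and Alox5 stand in the lower tail in CNT-2, at -4.28, -2.75 and -2.30, and Alox15 is the 1 member to the right of 0, at 0.71.

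Set directly against CNT-1, CNT-2 gave 3 members at least 2-fold lower and 0 higher, beside 4.65% and 9.32% of all genes. The difference of Ptgs1 was -2.67, ranking 19 from the lowest, that of Alox5 -1.79 and that of Alox5ap -1.08. Pla2g4a was at -0.86 and Tbxas1 at -0.60. In the other direction Ptges was higher in CNT-2 than in CNT-1, by 0.74, Alox15 by 0.72 and Hpgds by 0.36. Of the 10 members 7 lay below 0, as did 36.7% of all genes, and their median was -0.48, against 0.15 over all genes. With quantile normalization only Ptgs1 stayed past 2-fold, at -1.08, and Alox5ap was at -0.08. This comparison uses columns already used above and adds no independent measurement.

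The rest of the eicosanoid pathway was divided into 9 lists, with 86 of 96 listed genes measured. In CNT-1 none of the 86 was at least 2-fold higher and 4 were lower, beside 1.16% and 2.15% of all genes. In CNT-2 10 were higher and 12 lower, beside 10.1% and 6.56%. The CNT-2 count of each list below is to be read beside these same shares. The medians of -0.09 in CNT-1 and -0.02 in CNT-2 lay closer to the medians of all genes than those of the 10 members did.

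Among 21 other phospholipases and lipid-cleaving enzymes 1 was at least 2-fold higher and 4 were lower in CNT-2, beside 10.1% and 6.56% of all genes. Pla2g2d, a secreted phospholipase, was lower, at -1.98, as was Pla2g2f, another secreted form, at -1.42. Mgll, a lipase that cleaves monoacylglycerols and can supply arachidonic acid, was higher by 1.93 with a probe SD of 0.74 over 2 probes. Pla2g2a, the secreted phospholipase of group IIA, had -1.47 in CNT-1 and 0.44 in CNT-2, against -0.09 in control, and so lay on opposite sides of control in the exposures.

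Of 12 genes that put arachidonic acid and other fatty acids back into lipids 3 were at least 2-fold higher and 1 was lower in CNT-2, beside 10.1% and 6.56% of all genes. The median was 0.56 with 4 of the 12 below 0, and none passed 2-fold in CNT-1. Lpcat1, an acyltransferase that rebuilds phosphatidylcholine, was higher by 3.26 ± 0.23 (probe SD, 2 probes). Acsl4, a ligase that prefers arachidonic acid, was higher by 1.65 ± 0.22 (probe SD, 2 probes) and the ligase Acsl5 by 1.43, while the acyltransferase Lpcat4 was lower, at -1.38.

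Of 8 other prostanoid synthases Ptgds, which makes prostaglandin D by a different enzyme from Hpgds, was the one past 2-fold in CNT-2, higher by 1.58. Of 8 other lipoxygenases and leukotriene enzymes only Lta4h, described above, passed 2-fold in CNT-2. Among 13 breakdown genes 1 was higher and 3 were lower in CNT-2, beside 10.1% and 6.56% of all genes. The cytochromes Cyp4f4 and Cyp4f5, members of a family that inactivates leukotriene B4, were lower, at -2.22 and -1.54, as was the reductase Ptgr3, at -1.34 ± 0.35 (probe SD, 2 probes). Ggt1, which cuts the glutamyl residue from the glutathione part of the first cysteinyl leukotriene, was higher by 1.48. Cyp4f4 was lower in CNT-1 too, at -2.12.

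Among the 9 prostanoid receptors 3 were at least 2-fold higher and 2 lower in CNT-2, beside 10.1% and 6.56% of all genes. Ptger2, a receptor for prostaglandin E2 that raises cyclic AMP, was higher by 1.71, and Ptgdr2, a receptor for prostaglandin D2, by 1.19. Ptgfr, the receptor for prostaglandin F, was lower, at -2.58. Ptger4, the other cyclic AMP-raising receptor for prostaglandin E2, had -0.45 in CNT-1 and -0.58 in CNT-2, against 0.96 in control. Its differences of -1.40 and -1.54 thus rest on a control value well above 0.

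Of 5 leukotriene and lipoxin receptors none passed 2-fold in CNT-2. Cysltr2, a receptor for cysteinyl leukotrienes, had -0.13 in CNT-1 and 0.03 in CNT-2, against 0.92 in control, so its difference of -1.05 in CNT-1 rests on the control value as well. No transport gene of 4 passed 2-fold, and Slco3a1, a prostaglandin carrier with a control value like that of the negative-control probe, was the furthest from 0 at 0.96. Of 6 epoxygenases and epoxide hydrolases, which form and open another class of arachidonic acid products, Cyp2j4 was higher by 2.83 and Ephx2 lower, at -1.25, in CNT-2.

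**Figure D4:**
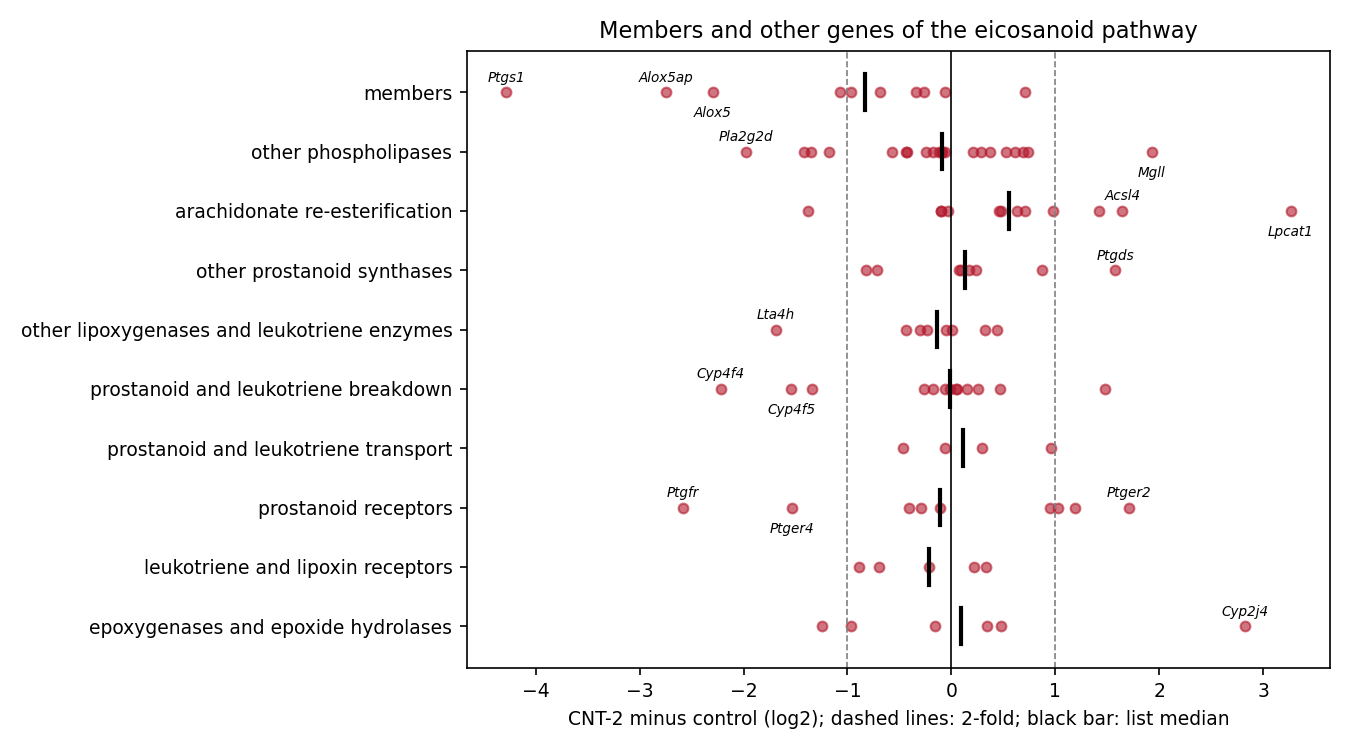
CNT-2 minus control (horizontal axis, log2) for the 10 members and for 9 lists of other eicosanoid genes, 1 point per gene, with a black bar at the median of each list and dashed lines at 2-fold. The members reach the lowest value, -4.28 for Ptgs1, and the re-esterification list the highest, 3.26 for Lpcat1.

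Markers were looked at beside these values. Because the table is centred per probe, it cannot show whether a marker is expressed, so the labelled cell type was not checked in that way. Of 13 measured alveolar macrophage markers none passed 2-fold in CNT-1. In CNT-2 1 was higher, Fabp4 by 3.96, and 2 were lower, the mannose receptor Mrc1 at -2.24 and the growth factor receptor Csf1r at -1.25. Csf1r had -0.73 in CNT-2 against 0.52 in control, with a probe SD of 0.60 over 2 probes. Its difference thus rests in part on a control value above 0. Of 33 markers of mast cells, epithelium, lymphocytes, neutrophils, platelets, fibroblasts and endothelium 1 was higher and 1 lower in CNT-1, and 4 were higher and 4 lower in CNT-2. Their medians were -0.19 and -0.01. Beside both marker counts, 1.16% of all genes were at least 2-fold higher and 2.15% lower in CNT-1. In CNT-2 these shares were 10.1% and 6.56%. Control probes named DCP differed in CNT-2 minus control by 0.22 ± 0.08 (SD over 11 probes) for numbers 0 to 5. For numbers of 6 and above the difference was -0.18 ± 0.26 (SD over 7 probes). The part of the markers and of the shifts in these probes in the differences of the members was not tested. The part of RNA quality was not tested either, and the DCP probes are not taken here as a measure of it. None of the 11 member probes had a control value within 0.02 of the negative-control probe.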

How the data were processed

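NR8383 cultures gave total RNA, from which Cy3-labelled cRNA was made for Agilent arrays of 1 colour, per the labels' protocols. The submitters' processing notes name Agilent Feature Extraction, version 10.7.3.1. The deposited table holds values taken as log2, centred per probe by the authors; the baseline, the normalization between arrays and the base of the logarithm are stated in none of the sources used here, and log2 was presumed from the range of the values. Larger values were read as more RNA. It has 41103 probes and 3 columns, 1 per group. The labels give the replicate number 4 to every sample and the design text an n of 4, so a column may be 1 array or a mean of several.

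Of all probes 20932 had 1 platform symbol, 0 had several and 20171 had none. RefSeq accessions named 17424 probes and symbols the rest, of which 396 were older symbols updated and 8 stayed unmatched. The value of a gene is the mean over its probes of the difference between columns, and 2-fold means a difference of at least 1. Differences were recomputed under 15 alternatives, among them scalings, probe summaries, thresholds and filters. The calculation was tested on simulated data. All members are named, and of the other lists at most the 4 genes furthest from 0 among those past 2-fold in either exposure, or the 1 furthest from 0 in CNT-2 where none passed. Members and lists were chosen with earlier results of these data known. Python 3.11.15, numpy 2.4.6 and pandas 2.3.3 were used.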

Additional observations from a re-analysis of the deposited data

How the results depend on the processing

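With 1 column per group, no result has a replicate check, depth or signal over background cannot be read from centred values, and alternatives show only the effect of the processing. No paired analysis was possible because each group has 1 column and no test was made. No member past 2-fold changed sign under any alternative run. All members but Ptgs2 have 1 probe, so only 4 scalings and the subtraction of the control could move their values. Under these 5, Ptgs1 and Alox5ap in CNT-1, and Ptgs1, Alox5ap and Alox5 in CNT-2, stayed past 2-fold, whereas Tbxas1 in CNT-2 did under 4, with -0.32 under quantile normalization. In CNT-2 minus CNT-1, Alox5 and Alox5ap stayed past it under 3 of 4 scalings, with -0.77 and -0.08 under quantile normalization. That scaling gives all columns 1 distribution, where the SD over probes was 0.40 in CNT-1, 0.85 in CNT-2 and 0.16 in control. The median over all genes in CNT-2 minus control moved from 0.04 to -0.27 with 75th percentile and to -0.18 with spike-in centring.

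Quantile normalization gave 4 members lower in CNT-1 (Ptgs1, Alox5ap, Ptges and Hpgds) and a member median of -0.36. Beside that count, 3.72% of all genes were lower under this scaling, where 2.15% were as deposited. It gave 14 other pathway genes past 2-fold in CNT-2. For CNT-2 minus CNT-1 it gave 1 member lower, 5 other genes and a median of -0.075. The 75th percentile gave member medians of -1.14 in CNT-2 and -0.805 for CNT-2 minus CNT-1, the spike-in probes -1.05 and -0.75, and the probe with the largest difference -1.02 and -0.73. With only probes near 0 in the control, member medians were -0.38 in CNT-1, -1.02 in CNT-2 and -0.73 for CNT-2 minus CNT-1, and 2 other genes passed in CNT-1, as also without subtracting the control. A threshold of 1.5-fold gave 4 members lower and 8 other genes in CNT-1. In CNT-2 it gave 1 member higher, 6 lower and 36 other genes. For CNT-2 minus CNT-1 it gave 2 members higher, 5 lower and 29 other genes. A threshold of 3-fold gave 2, 3 and 2 members lower and 1, 9 and 6 other genes in these comparisons. If the scale were the natural log, a 2-fold threshold gave 4 members lower and 7 other genes in CNT-1. It gave 1 member higher, 5 lower and 32 other genes in CNT-2. For CNT-2 minus CNT-1 it gave 2 members higher, 4 lower and 26 other genes. The shares of all genes past these other thresholds were not computed, so these counts have no share to be read beside. Genes with 2 or more probes leave only Ptgs2 of the members, with 0 lower in each comparison, a median of -0.32 in CNT-1, and 0, 5 and 3 other genes. The cause of these moves beyond their construction was not tested. Of 140 values of single members under the 4 scalings and without subtracting the control, 71 moved by no more than the median probe SD over genes and 69 by more; no probe-choice or filter alternative is counted here.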

Other observations

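The following genes were chosen after their values were seen. A receptor gene and a receptor partner gene next to this pathway were lower in CNT-1 than in CNT-2. Ptafr, the receptor for platelet-activating factor, another lipid mediator derived from membrane phospholipids, had -2.50 in CNT-1 and -1.76 in CNT-2, against -0.01 in control. Ptgfrn, a membrane protein that interacts with the prostaglandin F receptor, had -2.81 in CNT-1 and -1.08 in CNT-2, against -0.12 in control. For Ptgs1, Alox5 and Alox5ap the order of the exposures was the opposite, with CNT-2 the lower. With quantile normalization their CNT-2 minus CNT-1 differences shrank to -1.08, -0.77 and -0.08. Ptafr and Ptgfrn were not followed under the other scalings.

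Genes that inflammatory signals are known to induce in macrophages lay on both sides of control in CNT-2, in the values as deposited. Above it were the inducible nitric oxide synthase Nos2 at 4.85, the chemokine Cxcl2 at 6.27, Tnf at 2.24 and Acod1, the itaconate-forming enzyme, at 7.65. Below it were the chemokine Cxcl10 at -3.70 and Il1b at -0.33. The 2 probes of Ptgs2 were at -1.21 and -0.16, although their mean turned to 0.40 with quantile normalization. These genes were picked by hand and not from a fixed list, and with 1 column per group none of the differences has a replicate check.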
